A study of Mus musculus with 12 samples.

Results

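The Wnt genes described here are 40 mouse genes that encode Wnt receptors, the cytoplasmic proteins that pass the signal on, the TCF/LEF transcription factors and the nuclear proteins that work with them. They were chosen by name. Each was represented by the probe set that the array annotation assigns to that gene alone, and by the brightest of these on average over all 12 arrays where there were several. A probe set was found for 39 of the 40 genes, among 18193 genes in the series, and 37 of the 39 passed the filter on dim probe sets and were tested. Tcf7, which encodes TCF1, had no such probe set in the annotation used here and was not analysed here. Of the 39 genes, 7 had 1 probe set and 32 had several, up to 6.

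Messenger RNA was measured on Affymetrix mouse genome arrays in 4 groups of 3 samples. Both leukaemia groups are T-cell acute lymphoblastic leukaemias (T-ALL) driven by Notch1 in transplanted mice, 1 group with wild-type MBD2 and 1 with MBD2 deletion (MBD2-/-), taken as GFP+ bone marrow cells sorted once more than 50% of white blood cells in the blood were GFP+. The other groups are CD4+CD8+ double positive (DP) thymocytes, sorted from steady-state mice with wild-type MBD2 or with MBD2 deletion. MBD2 is a protein that binds methylated CpG dinucleotides and recruits the NuRD repressor complex. The leukaemia cells came from bone marrow and the DP cells from thymus, so the 2 leukaemia to thymocyte comparisons also compare tissues and hosts. The Notch1 allele, the deletion's design and the age and sex of the mice were not stated in the labels, nor whether the arrays of a group come from separate mice. The p-values therefore measure only the spread between these samples.

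The labels were checked on Mbd2 itself. Its intensity was 820 ± 119 (mean ± SD, n = 3) in wild-type leukaemia against 54.4 ± 12.4 with the deletion, and 1136 ± 206 in wild-type DP cells against 72.1 ± 10.7 with the deletion. The 12 array medians were 5.71 to 5.79 in log2 units. Poly-A control transcripts gave signal on 5 arrays (wild-type leukaemia 1 and 2, deletion leukaemia 1, wild-type DP 1 and 2) and none on the other 7, and the Gapdh 3' to 5' ratio was 0.964 to 1.14 on the first and 1.12 to 3.68 on the second. The highest poly-A control on those 7 arrays had an intensity of 35.3, which is used below as the background level, since no detection calls were used. The summed intensity of 7 T-lineage markers was 20909 to 26414 in wild-type leukaemia, 11911 to 16006 in deletion leukaemia and 34029 to 48588 in DP cells. The sums for other cell types also differed between the leukaemia genotypes. Natural killer and innate lymphoid markers (3 measured, of which 2 in wild-type and 1 in deletion leukaemia were under background on all arrays) summed to 62.6 to 72.0 in wild type and 227 to 378 with the deletion. Stromal, endothelial and thymic epithelial markers (7 measured) gave 191 to 304 and 434 to 633, megakaryocyte markers (4) 222 to 257 and 382 to 457, and myeloid markers (10) 968 to 1812 and 321 to 818. At or under background on all arrays of the group were 5 and 4 stromal, 1 and 1 megakaryocyte and 4 and 5 myeloid markers. Limma gave an adjusted p under 0.05 between these genotypes for 1 natural killer, 2 stromal, 1 megakaryocyte and 2 myeloid markers. These are 33.3%, 28.6%, 25% and 20% of those tested, against 16.2% of all genes. The lists' median log2 differences were 0.10, 0.09, 0.14 and -0.16, so the sums do not describe whole lists. The part of these marker differences in the results below was not tested. In sorted bulk cells, fewer cells of a type and less RNA per cell cannot be told apart.

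In the canonical Wnt pathway, a Wnt protein binds a frizzled receptor together with LRP5 or LRP6. Dishevelled proteins are then engaged, and the destruction complex of axin, APC, GSK3 and CK1 no longer marks beta-catenin for degradation. Beta-catenin enters the nucleus, binds TCF/LEF factors and, with BCL9 and Pygopus, replaces the Groucho/TLE corepressors. In the thymus, TCF1 and LEF1 are needed for the early steps of T-cell development and for the survival of DP cells.

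The 250 bases upstream of the annotated start are shown for 6 genes on which the comparisons turn, since MBD2 binds methylated CpG. These are the 4 genes with the largest called differences between the leukaemia genotypes and 2 with large differences between leukaemia and DP cells, a choice made with the values known. Each is written 5' to 3' on the gene's own strand with CpG dinucleotides in capitals, from RefSeq, build GRCm38.p6. Fzd5 lies at chr1:64737751-64738000 on the minus strand with 32 CpG. Ctnnbip1 lies at chr4:149517991-149518240 on the plus strand with 24 CpG, Axin2 at chr11:108920099-108920348 on the plus strand with 24 CpG and Tle4 at chr19:14598184-14598433 on the minus strand with 24 CpG. Ryk lies at chr9:102834670-102834919 on the plus strand with 33 CpG, and Tle2 at chr10:81575037-81575286 on the plus strand with 21 CpG. Ctnnbip1 and Tle4 have 2 annotated starts each, of which the first is shown.
Fzd5: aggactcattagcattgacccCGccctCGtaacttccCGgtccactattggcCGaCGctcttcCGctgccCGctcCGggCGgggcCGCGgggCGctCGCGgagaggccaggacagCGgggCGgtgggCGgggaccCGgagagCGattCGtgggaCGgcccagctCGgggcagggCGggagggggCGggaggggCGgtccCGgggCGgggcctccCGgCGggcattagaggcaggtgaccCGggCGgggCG
Ctnnbip1: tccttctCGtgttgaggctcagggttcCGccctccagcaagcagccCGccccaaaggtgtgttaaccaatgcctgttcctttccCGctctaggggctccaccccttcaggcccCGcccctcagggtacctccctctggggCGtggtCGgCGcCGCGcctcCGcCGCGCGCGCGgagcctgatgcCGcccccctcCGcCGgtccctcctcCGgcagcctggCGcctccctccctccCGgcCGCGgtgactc
Axin2: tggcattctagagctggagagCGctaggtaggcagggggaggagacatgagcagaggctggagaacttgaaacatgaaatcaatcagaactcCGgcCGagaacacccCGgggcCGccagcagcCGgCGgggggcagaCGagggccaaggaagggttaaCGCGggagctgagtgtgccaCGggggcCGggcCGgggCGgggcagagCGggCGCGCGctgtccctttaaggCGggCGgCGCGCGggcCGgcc
Tle4: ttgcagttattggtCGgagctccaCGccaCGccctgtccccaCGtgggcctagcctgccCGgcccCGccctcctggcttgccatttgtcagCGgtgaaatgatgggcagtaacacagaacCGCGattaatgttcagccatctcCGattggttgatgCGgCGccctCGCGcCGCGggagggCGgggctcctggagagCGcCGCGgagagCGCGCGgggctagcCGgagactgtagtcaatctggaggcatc
Ryk: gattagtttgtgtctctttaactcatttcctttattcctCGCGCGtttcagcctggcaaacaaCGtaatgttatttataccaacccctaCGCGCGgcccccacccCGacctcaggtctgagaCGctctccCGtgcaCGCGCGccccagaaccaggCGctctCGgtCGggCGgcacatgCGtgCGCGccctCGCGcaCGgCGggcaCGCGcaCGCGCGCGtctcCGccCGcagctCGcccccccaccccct
Tle2: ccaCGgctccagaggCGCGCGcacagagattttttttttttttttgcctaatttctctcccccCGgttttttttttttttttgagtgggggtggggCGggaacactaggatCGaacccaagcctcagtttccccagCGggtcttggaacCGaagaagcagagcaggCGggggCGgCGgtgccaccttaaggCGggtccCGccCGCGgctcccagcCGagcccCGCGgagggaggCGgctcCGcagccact

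Such windows were found for 29 of the 40 genes. The first windows of the 26 tested genes among them held 9 to 42 CpG, with a median of 24, against a median of 14 (quartiles 6 and 22) over 12326 tested genes with a window. The core TCF/LEF motif CTTTGA, searched on both strands, was found in the first windows of Fzd1, Gsk3a and Gsk3b, 11.5% of these 26, against 11.6% of tested genes, in that of the untested Ror1, and in none of the 6 windows shown. These counts describe the reference sequence. DNA methylation and MBD2 binding were not measured on these arrays.

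In the leukaemias, MBD2 deletion went with higher Tle4, Axin2 and Csnk1a1 and lower Ctnnbip1 and Fzd5. These 5 of 37 tested genes had an adjusted p under 0.05 (limma, Benjamini-Hochberg over all tested genes), when 16.2% of all 15420 genes did. The split was 3 higher and 2 lower, against 9.19% and 6.98% of all genes, and with arrays centred on the 75th percentile it was 2 higher and 3 lower. Blocking on the replicate number gave a count of 8, with 4 higher and 4 lower. The share of all genes called was computed for the main fit only, so counts under other settings have no share to be set against. The median log2 difference was 0.07 over these genes and -0.06 over all genes. Leaving out wild-type leukaemia array 2 or 3 left 3 calls.

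None of the 37 genes was called between the DP genotypes, where 0.0324% of all genes were, 0.0195% higher and 0.013% lower. At an unadjusted limma p under 0.05 there were 2, Tcf7l1 and Tle2, and the share of all genes at that threshold was not computed. Between wild-type leukaemia and wild-type DP cells 10 genes were called, 3 higher and 7 lower in leukaemia, against 33.9% of all genes called, 19.7% higher and 14.2% lower. Centring on the 75th percentile gave 6 higher and 6 lower, and a replicate block gave 13 calls, 6 higher and 7 lower. The share of all genes called was not computed under either setting. Between the deletion groups 10 genes were called, 5 higher and 5 lower, against 29.4% of all genes, 18.5% higher and 11% lower. The median log2 difference was -0.05 in wild type and -0.01 with the deletion, against 0.06 and 0.01 over all genes. The genotype difference in leukaemia differed from that in DP cells for 6 genes, against 12.6% of all genes. Of these, 3 had a more positive difference in leukaemia (Axin2, Tle2, Tle4) and 3 a more negative one (Fzd5, Ctnnbip1, Tcf7l1), against 7.86% and 4.74% of all genes. Each comparison shares arrays with others, so calls in several of them are not separate evidence.

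**Figure D1:**
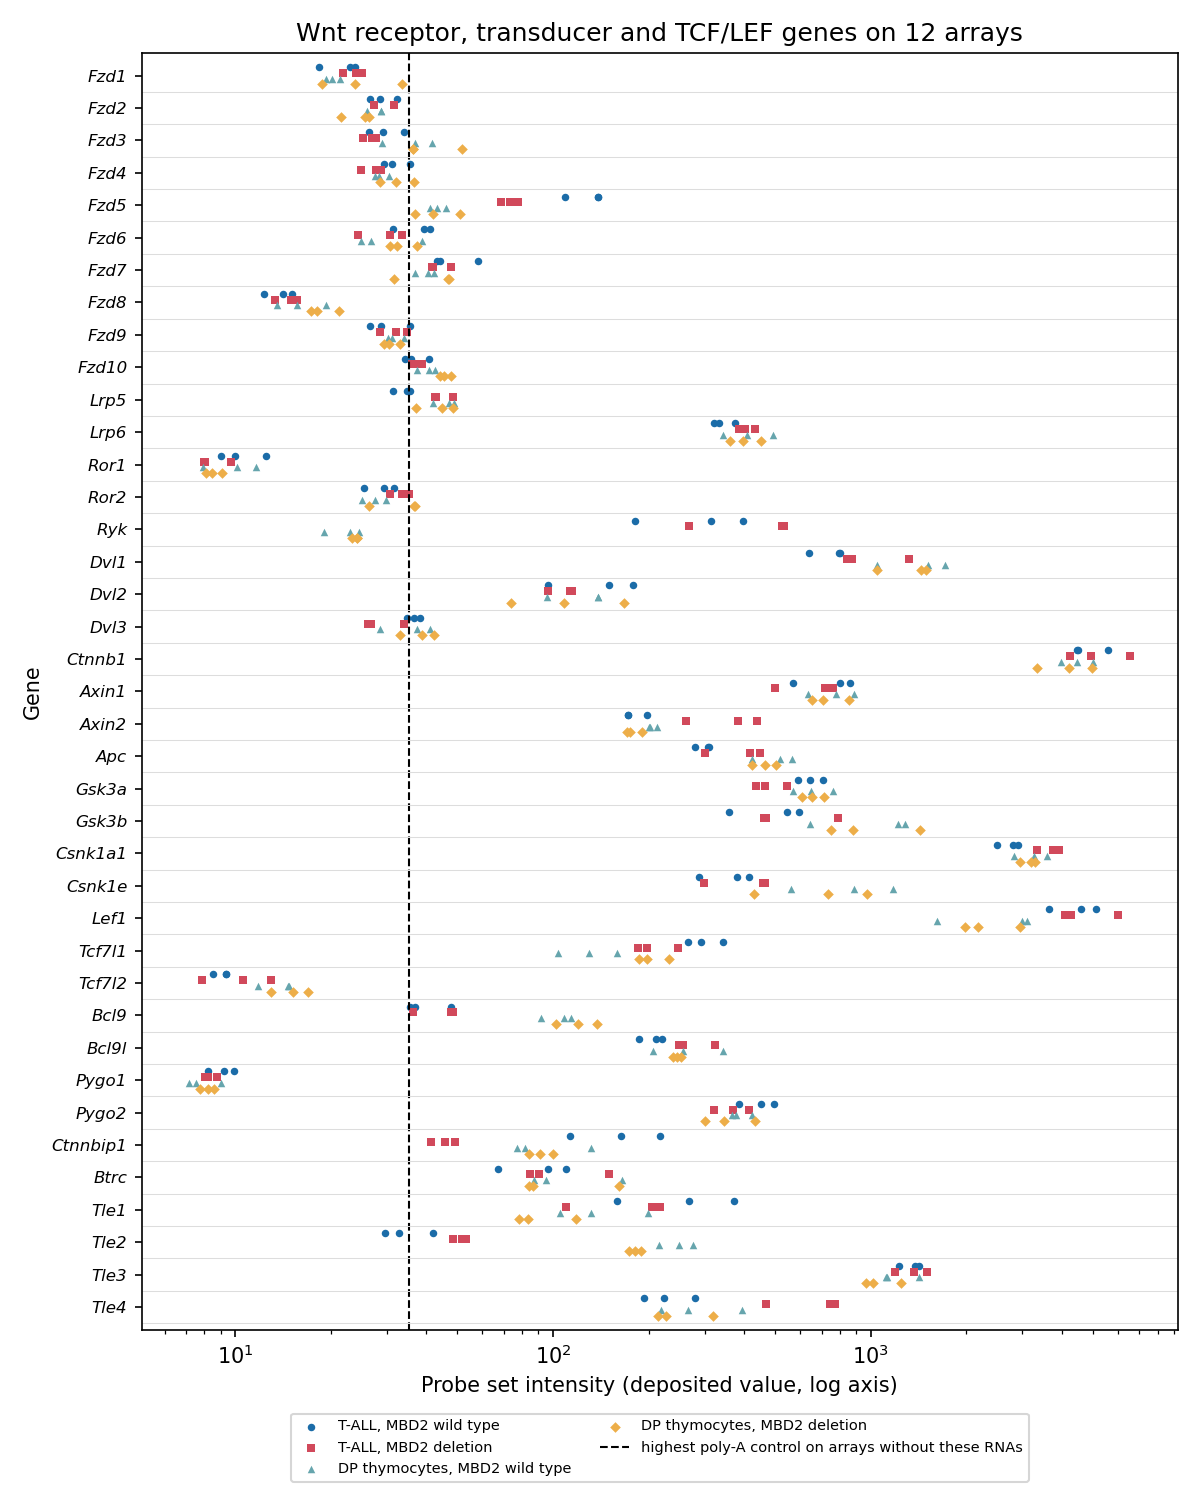
Intensity of the 39 measured Wnt pathway genes on each of 12 arrays (log axis), with 1 marker per array and a colour and shape per group. The dashed line is the background level of 35.3. Only Fzd5 among the 10 frizzled genes lies to the right of it on every array, and levels of different genes are not comparable because each is read by its own probes.

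Of the 39 measured genes, 22 were above the background level on all 12 arrays, 11 on some and 6 on none. The frizzled genes, which encode the receptors that bind Wnt proteins, were mostly dim. Fzd1, Fzd2 and Fzd8 were above background on no array, and Fzd3, Fzd4, Fzd6, Fzd7, Fzd9 and Fzd10 on some.

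Fzd5 was above background on all 12 arrays. Its intensity was 139, 139 and 109 in wild-type leukaemia, 77.9, 73.1 and 68.7 in deletion leukaemia, 46.0, 43.3 and 40.9 in wild-type DP cells and 36.8, 42.0 and 51.1 in deletion DP cells. Both leukaemia groups lay above both DP groups and did not overlap each other, while the DP genotypes overlapped. Fzd5 fell with the deletion in leukaemia by 0.69 on the log2(intensity + 16) scale (SE 0.12, adjusted p = 0.00909), from 129 ± 17.0 to 73.3 ± 4.59. Its log2 difference between the DP genotypes was -0.01. The difference of these differences was -0.68 (SE 0.16, adjusted p = 0.0174), which became -0.63 with an adjusted p of 0.0504 without wild-type leukaemia array 2. Leukaemia exceeded DP cells by 1.28 in wild type (SE 0.12, adjusted p = 0.000255) and by 0.60 with the deletion (SE 0.12, adjusted p = 0.00888). A second Fzd5 probe set was above background on 1 array only and was not called in any comparison.

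Fzd3 was lower in deletion leukaemia (26.9, 27.7 and 25.3) than in deletion DP cells (51.7, 36.3 and 36.2). All 3 leukaemia arrays were under background and all 3 DP arrays over it. The fit gave a log2 difference of -0.42 (SE 0.13, adjusted p = 0.0497), at least 1.16-fold when the background level stands in for the dim arrays. This call was lost when any 1 array was left out, with adjusted p from 0.0593 to 0.111, with the mean of probe sets (-0.12, adjusted p = 0.329) and with a constant of 64 in place of 16 (-0.21, adjusted p = 0.0824). The gene's 5 other probe sets were under background on every array. Fzd7, with intensities of 31.7 to 58.3 over all arrays, passed in no comparison.

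The co-receptor gene Lrp6 ranged from 321 to 494 over the 12 arrays. The leukaemia genotypes did not overlap (321, 332 and 373 in wild type, 384, 402 and 431 with the deletion), and the DP groups overlapped both. A second Lrp6 probe set did not overlap between the leukaemia genotypes either (0.31, adjusted p = 0.188). Of 18 alternatives, only the mean of probe sets called this difference (0.27, adjusted p = 0.0353). The values that follow are those of the brighter Lrp6 probe set. Its mean was 342 ± 27.6 in wild-type and 406 ± 23.7 in deletion leukaemia (log2 difference 0.24, SE 0.10, adjusted p = 0.191), and 415 ± 75.8 and 403 ± 44.9 in the DP groups. Lrp5 read 31.3, 34.8 and 35.5 in wild-type leukaemia, 42.4, 42.9 and 48.6 in deletion leukaemia, 48.7, 47.1 and 41.8 in wild-type DP cells and 44.6, 48.5 and 37.1 in deletion DP cells. The wild-type leukaemias were the lowest of the 4 groups and sat at the background level. They were lower than wild-type DP cells by a log2 difference of -0.31 (SE 0.10, adjusted p = 0.0471). The call was lost when any wild-type leukaemia array, or DP array 1 or 2, was left out, with adjusted p from 0.0801 to 0.149, and under centring on the 75th percentile (-0.23, adjusted p = 0.221).

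Among the receptors outside the frizzled family, Ryk, which encodes a kinase-like receptor with a Wnt-binding domain, had the largest difference between leukaemia and DP cells among the 37 tested genes. It read 396, 314 and 181 in wild-type leukaemia and 525, 535 and 267 in deletion leukaemia. In DP cells it read 19.1, 24.5 and 22.9 in wild type and 24.1, 24.2 and 23.4 with the deletion, under background on all 6 arrays. Both leukaemia groups were far above it and overlapped each other. The log2 differences were 2.97 in wild type (SE 0.26, adjusted p = 0.000196), at least 8.0-fold over background, and 3.46 with the deletion (SE 0.25, adjusted p = 8.79e-05), at least 11.9-fold. A second Ryk probe set gave log2 differences of 2.51 and 3.00, and the other probe set was under background on every array. Between the leukaemia genotypes the log2 difference was 0.55 (SE 0.35, adjusted p = 0.374). Under a replicate block, the same difference had an adjusted p of 0.0159, each deletion array lying above the wild-type array of its number. Ror1 (7.90 to 12.5, not tested) was under background on every array, and Ror2 (25.1 to 36.8) was above it on 2.

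**Figure D2:**
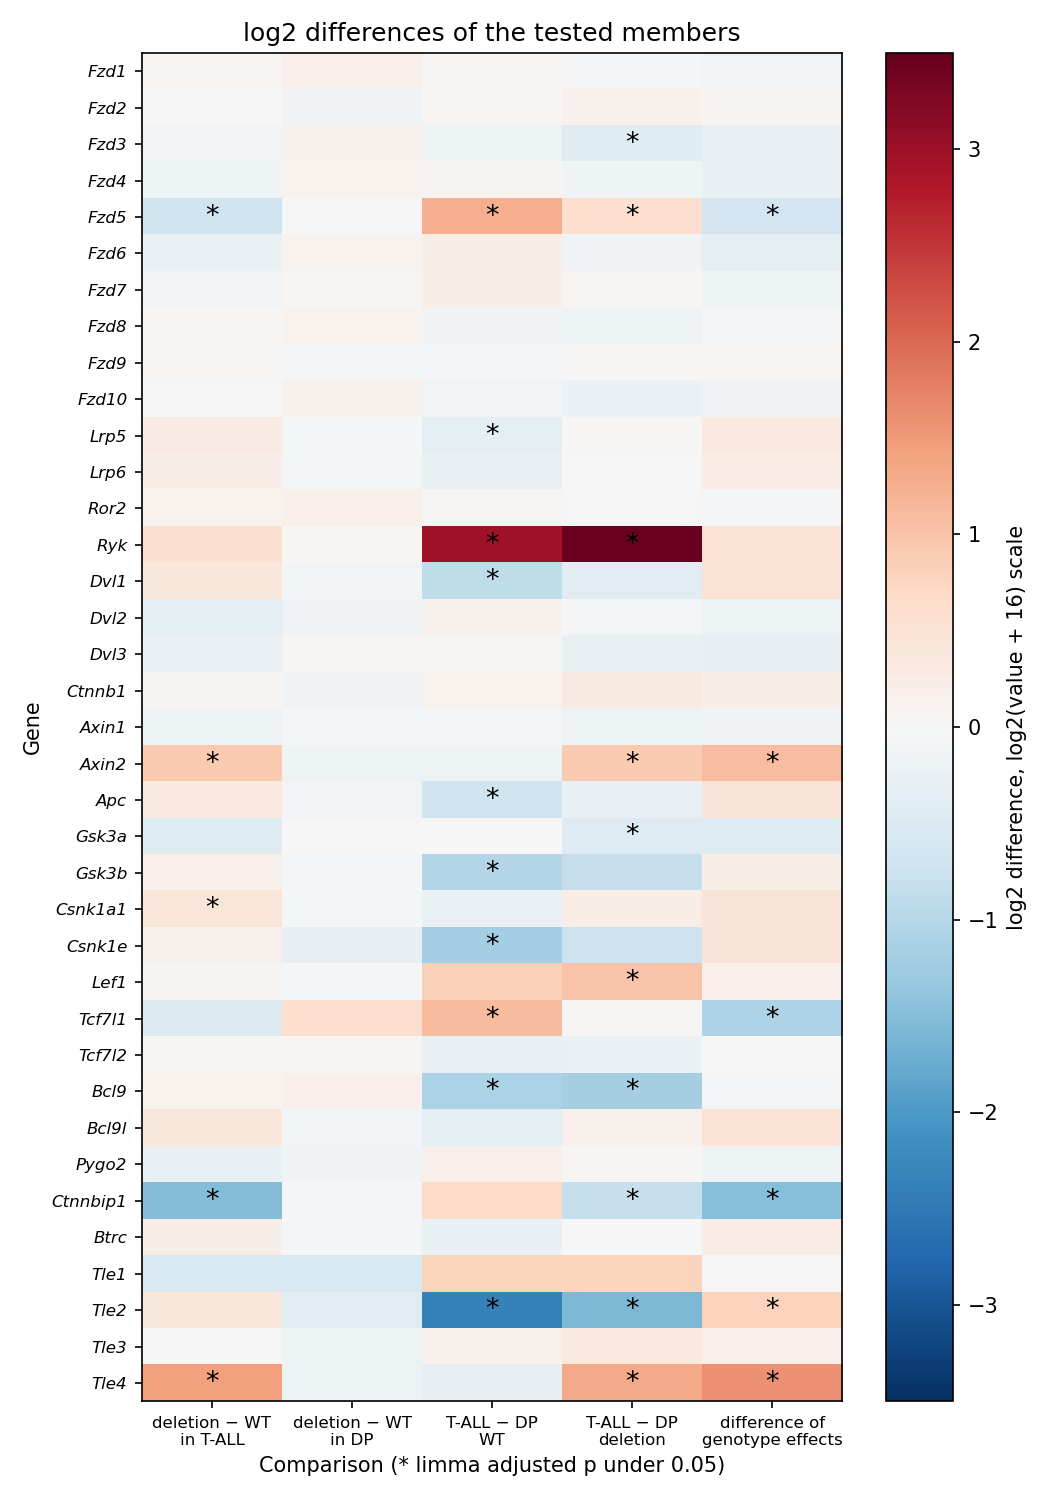
Log2 differences on the log2(intensity + 16) scale for the 37 tested genes (rows) in the 4 comparisons of 2 groups and in the difference between the genotype differences (columns). Red is higher and blue lower in the first group named, and a star marks an adjusted p under 0.05. The strongest colours are those of Ryk (2.97 and 3.46) between leukaemia and DP cells and of Tle2 in wild type (-2.37), and the column for the DP genotypes holds no star.

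Of the dishevelled genes, whose products carry the signal from the receptor, only Dvl1 passed the test in any comparison. Its intensities were 793, 641 and 803 in wild-type leukaemia, 841, 875 and 1324 in deletion leukaemia, 1512, 1048 and 1709 in wild-type DP cells and 1490, 1046 and 1436 in deletion DP cells. All wild-type leukaemias lay under all wild-type DP samples, while deletion leukaemia 3 was within the DP range. The wild-type difference was -0.90 (SE 0.20, adjusted p = 0.0113), and -0.79 with an adjusted p of 0.0505 without wild-type leukaemia array 2. A second Dvl1 probe set, above background on all 12 arrays, gave -0.49 (adjusted p = 0.152). Dvl2 (73.8 to 178) passed in no comparison, and Dvl3 (26.2 to 42.3) was near background.

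The transcript of beta-catenin itself, Ctnnb1, passed in no comparison. It read 5587, 4465 and 4502 in wild-type leukaemia, 4919, 6563 and 4235 in deletion leukaemia, 4992, 3963 and 4465 in wild-type DP cells and 3332, 4198 and 4964 in deletion DP cells. All 4 groups overlapped, and the log2 difference between the leukaemia genotypes was 0.09 (SE 0.18, adjusted p = 0.802). These values are of mRNA, while beta-catenin is mainly controlled by breakdown of the protein, which was not measured.

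Axin2, a scaffold of the destruction complex whose gene is itself a widely used target of Wnt signalling, rose with the deletion in leukaemia. It read 198, 172 and 172 in wild-type leukaemia against 381, 437 and 262 in deletion leukaemia, and 213, 202 and 200 against 175, 190 and 171 in DP cells. The deletion leukaemias lay above all 9 other arrays, and the deletion DP arrays lay just under the wild-type DP arrays. The log2 difference was 0.91 (SE 0.19, adjusted p = 0.0192), a ratio of means of 1.99. It was -0.18 between the DP genotypes (adjusted p = 0.982), and the difference of the differences was 1.09 (SE 0.22, adjusted p = 0.00575). Leukaemia exceeded DP cells by 0.92 with the deletion (SE 0.18, adjusted p = 0.00843), and in wild type the log2 difference was -0.17 (adjusted p = 0.253). The leukaemia call was lost without any of the wild-type leukaemia arrays or without deletion leukaemia array 1, at log2 differences of 0.85 to 0.97 and adjusted p of 0.0520 to 0.0856. The leukaemia genotype difference was 0.99 among the arrays with poly-A signal (1 deletion against 2 wild-type arrays) and 0.91 among those without (2 against 1). A second Axin2 probe set was under background on every array. Axin1, the paralogous scaffold, ranged from 498 to 888 with no call.

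Apc and Gsk3b, of the destruction complex, were lower in wild-type leukaemia than in wild-type DP cells. Apc, the tumour suppressor that holds beta-catenin in the complex, read 308, 309 and 279 in wild-type leukaemia and 517, 566 and 423 in wild-type DP cells, with no overlap (log2 difference -0.71, SE 0.13, adjusted p = 0.00521). Deletion leukaemias were in between, at 417, 447 and 301, against 465, 424 and 502 in deletion DP cells (log2 difference -0.26, adjusted p = 0.301). In wild type the other Apc probe sets gave -0.86, -0.62 and -0.48, none called (adjusted p 0.0597, 0.114 and 0.179 in a fit over all probe sets). The wild-type groups overlapped on each of them, and the last was above background on 1 array only. The difference of the differences did not pass for Apc (0.45, adjusted p = 0.242), nor for Gsk3b (0.21, adjusted p = 0.843) or Csnk1e (0.46, adjusted p = 0.624).

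Gsk3b, a kinase that phosphorylates beta-catenin, read 596, 545 and 357 in wild-type leukaemia, 787, 460 and 469 in deletion leukaemia, 1286, 1220 and 642 in wild-type DP cells and 751, 878 and 1433 in deletion DP cells. The wild-type groups did not overlap, and array 3 was the lowest in both. The log2 difference was -1.02 (SE 0.30, adjusted p = 0.0386), and it was lost in 5 of 6 fits that left out 1 array (adjusted p 0.0612 to 0.121). The gene's 5 other probe sets were lower too, with log2 differences of -0.82 to -1.95 and adjusted p of 0.000144 to 0.0206 in a fit over all probe sets. With the deletion it was -0.81 (adjusted p = 0.0812), a difference that 8 of 18 alternatives called. Among them were a block for the poly-A set (-1.05, adjusted p = 0.0334) and the mean of probe sets (-1.01, adjusted p = 0.000953). Only leukaemia array 1 of the deletion groups has poly-A signal, so the block repeats the fit without that array, and the 8 include both. The 5 other probe sets gave -0.61 to -1.84 there, and 4 of the 5 were called (adjusted p 0.000255 to 0.0286, and 0.0973 for the fifth). Its paralogue Gsk3a read 590, 646 and 710 in wild-type leukaemia, 436, 465 and 546 in deletion leukaemia and 713, 655 and 607 in deletion DP cells. The deletion leukaemias were below both other groups. Against deletion DP cells the log2 difference was -0.44 (SE 0.12, adjusted p = 0.0336). The adjusted p was 0.0872 to 0.107 without array 1 or 2 of either group. The block for the poly-A set, the same fit as without leukaemia array 1, gave 0.107. The adjusted p was 0.112 with the replicate block, 0.103 with a trended and robust fit and 0.0581 with a constant of 1. Against wild-type leukaemia the log2 difference was -0.42 (adjusted p = 0.0691), with an adjusted p of 0.0251 with the replicate block.

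The casein kinase genes split by comparison. Csnk1e, whose product phosphorylates dishevelled, read 380, 413 and 289 in wild-type leukaemia and 1177, 884 and 562 in wild-type DP cells (log2 difference -1.19, SE 0.27, adjusted p = 0.0129). The groups did not overlap, and DP array 3 came closest to the leukaemias. Deletion leukaemias (457, 466 and 298) and deletion DP cells (429, 736 and 970) overlapped (log2 difference -0.73, adjusted p = 0.126). Csnk1a1, the kinase that primes beta-catenin for GSK3, read 2493, 2804 and 2909 in wild-type leukaemia against 3343, 3910 and 3732 in deletion leukaemia. These groups did not overlap (log2 difference 0.42, SE 0.11, adjusted p = 0.0470), and the DP groups, at 2821 to 3596, overlapped both. This call was lost in 12 of 18 alternatives, among them each of the 6 fits without 1 array (adjusted p 0.0568 to 0.158 where lost). Of the gene's 4 other probe sets, 1 pointed the other way (-0.08) and was above background on 3 arrays only. The others gave 0.46, 0.25 and 0.31 and were not called (adjusted p 0.058 to 0.43 in a fit over all probe sets). Btrc, part of the ubiquitin ligase that marks beta-catenin, ranged from 67.1 to 165 with no call.

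Among the DNA-binding factors, Lef1 was higher in leukaemia than in DP cells. It read 5123, 4577 and 3626 in wild-type leukaemia, 4254, 5980 and 4084 in deletion leukaemia, 3102, 2988 and 1617 in wild-type DP cells and 2169, 1978 and 2943 in deletion DP cells. All 6 leukaemia arrays were above all 6 DP arrays, and genotypes overlapped within each cell type. With the deletion the log2 difference was 1.01 (SE 0.20, adjusted p = 0.00874). In wild type it was 0.83 (SE 0.27) and missed the threshold (adjusted p = 0.0506), with an adjusted p of 0.00197 with the replicate block and 0.0011 with a block for the poly-A set. A second Lef1 probe set gave 1.63 in wild type (adjusted p = 0.0024) and 1.00 with the deletion (adjusted p = 0.118). Between the leukaemia genotypes the log2 difference was 0.10 (adjusted p = 0.809).

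Tcf7l1, which encodes TCF3, a factor that acts mostly as a repressor, had genotype differences of opposite sign in the cell types. It read 266, 342 and 293 in wild-type and 248, 185 and 198 in deletion leukaemia, against 130, 159 and 104 in wild-type and 232, 197 and 186 in deletion DP cells. Wild-type leukaemias were the highest and wild-type DP samples the lowest, with both deletion groups between them and overlapping. Neither genotype difference passed (-0.49, SE 0.15, adjusted p = 0.0687 in leukaemia and 0.60, SE 0.16, adjusted p = 0.862 in DP cells). Their difference did, at -1.09 (SE 0.23, adjusted p = 0.00762). Wild-type leukaemia exceeded wild-type DP cells by 1.12 (SE 0.17, adjusted p = 0.00203), and the deletion groups differed by 0.03. A second probe set gave 2.01 (adjusted p = 0.000833) in wild type and -1.5 (adjusted p = 0.016) for the difference of the differences. Tcf7l2, which encodes TCF4, was at 7.85 to 16.9, under background on every array.

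**Figure D3:**
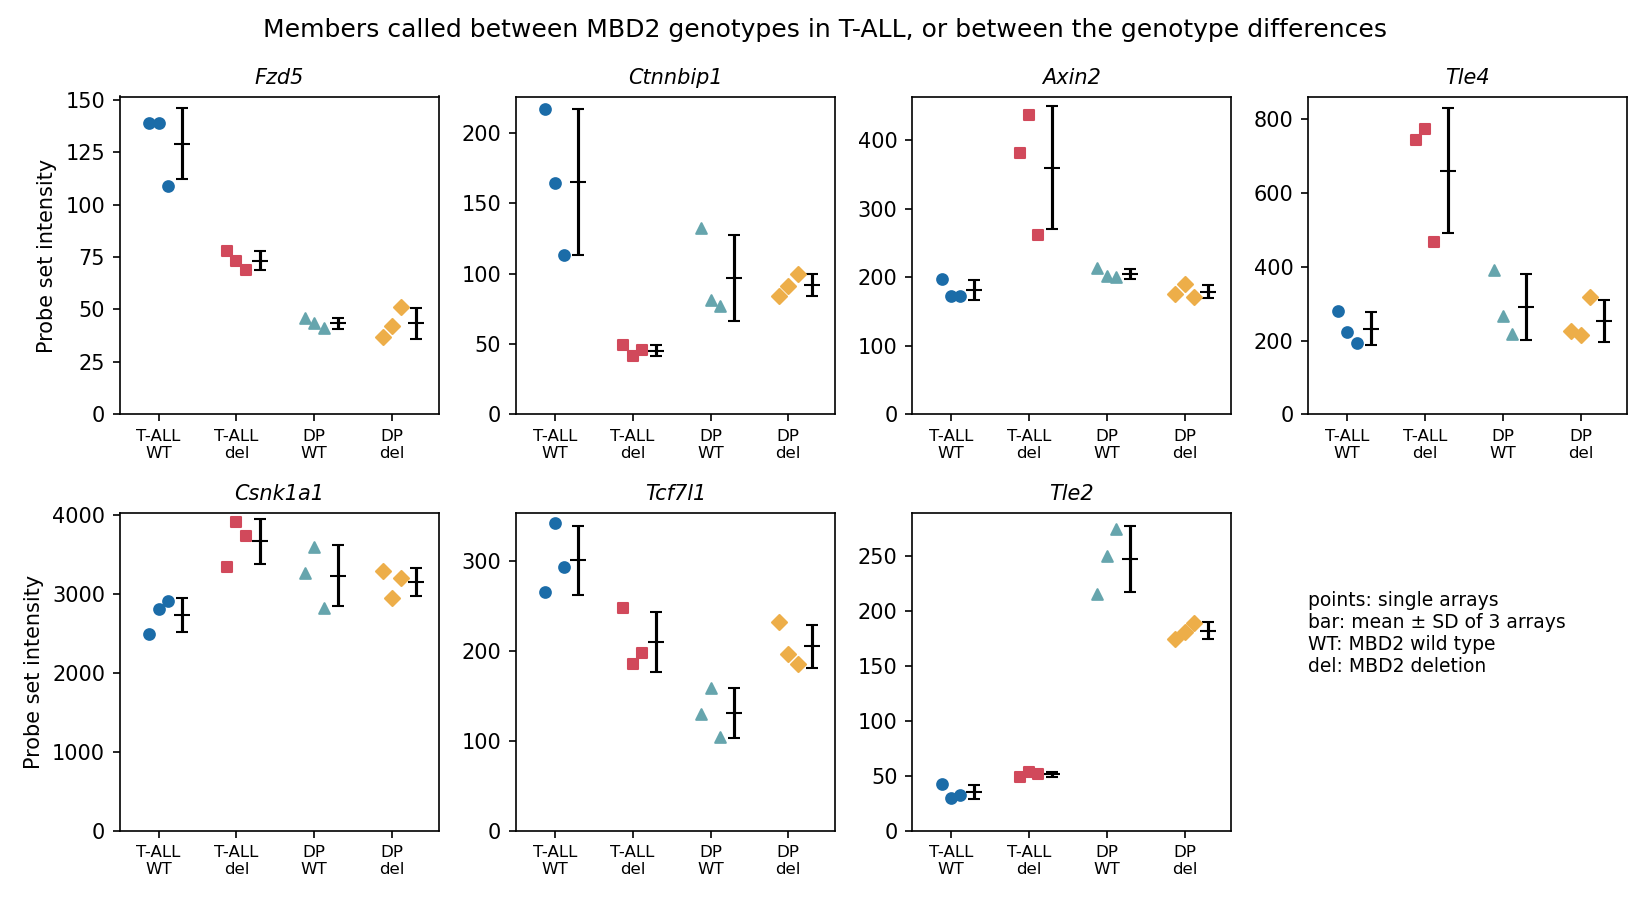
Intensity by array (linear axis from 0) of the 7 genes called between the leukaemia genotypes or between the genotype differences of the cell types, with the group mean and SD beside the points (n = 3). Ctnnbip1 and Fzd5 are lower and Axin2, Tle4 and Csnk1a1 higher in deletion than in wild-type leukaemia without overlap, and the DP genotypes overlap for these genes except Axin2.

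Among the 37 tested genes, the largest fall with the deletion in leukaemia was that of Ctnnbip1, which encodes ICAT, a small protein that binds beta-catenin and keeps it from TCF/LEF factors. It read 217, 164 and 113 in wild-type leukaemia, 49.0, 41.4 and 45.6 in deletion leukaemia, 132, 81.4 and 76.8 in wild-type DP cells and 84.2, 91.3 and 99.9 in deletion DP cells. The deletion leukaemias were the lowest of all arrays, and the other 3 groups overlapped in part. The log2 difference in leukaemia was -1.52 (SE 0.21, adjusted p = 0.00353), from 165 ± 52.0 to 45.3 ± 3.82, 3.64 times lower as a ratio of means. In DP cells it was -0.04. The difference of the differences was -1.49 (SE 0.30, adjusted p = 0.00683). The leukaemia genotype difference was -1.66 among the arrays with poly-A signal (1 deletion against 2 wild-type arrays) and -1.12 among those without (2 against 1). A second probe set, at 118, 109 and 99.8 against 37.3, 44.2 and 33.8, gave -1.20 (adjusted p = 0.00105). Deletion leukaemia was lower than deletion DP cells by 0.81 (log2 difference -0.81, SE 0.11, adjusted p = 0.00129). In wild type, leukaemia exceeded DP cells by 0.67 (SE 0.26, adjusted p = 0.0933), with an adjusted p of 0.00248 with the replicate block.

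Bcl9, a co-activator that links beta-catenin to Pygopus, was lower in leukaemia in both genotypes. It read 47.6, 35.4 and 36.7 in wild-type and 48.3, 47.8 and 36.4 in deletion leukaemia, against 108, 114 and 91.7 in wild-type and 102, 120 and 138 in deletion DP cells. No leukaemia array reached any DP array. The log2 differences were -1.11 in wild type (SE 0.13, adjusted p = 0.00068) and -1.17 with the deletion (SE 0.14, adjusted p = 0.00083). A second Bcl9 probe set gave -0.19 (adjusted p = 0.586) and -0.52 (adjusted p = 0.0202). Bcl9l (187 to 342) and Pygo2 (301 to 497) passed in no comparison, and Pygo1 (7.16 to 9.91, not tested) was under background on every array.

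The TLE genes encode Groucho-type corepressors that bind TCF/LEF factors in the absence of beta-catenin, and they went different ways. Tle4 read 280, 223 and 193 in wild-type leukaemia and 744, 774 and 467 in deletion leukaemia, and 392, 266 and 219 in wild-type against 227, 214 and 319 in deletion DP cells. The deletion leukaemias were above all other arrays, and the other 3 groups overlapped. Tle4 rose with the deletion in leukaemia by 1.43 (SE 0.22, adjusted p = 0.00598), with a ratio of means of 2.85. The log2 difference in DP cells was -0.18, and the difference of the differences was 1.61 (SE 0.35, adjusted p = 0.0103). It was 1.32 higher in deletion leukaemia than in deletion DP cells (SE 0.23, adjusted p = 0.00469). The rise with the deletion in leukaemia was 1.52 among the arrays with poly-A signal (1 deletion against 2 wild-type arrays) and 1.56 among those without (2 against 1). Both other Tle4 probe sets were dim, above background on no array and on 3, and were not called in any comparison.

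Tle2 was lower in leukaemia than in DP cells in both genotypes. It read 42.0, 29.7 and 32.8 in wild-type and 48.3, 53.4 and 51.7 in deletion leukaemia, against 215, 250 and 275 in wild-type and 174, 181 and 189 in deletion DP cells. No 2 groups overlapped, and 1 of the 3 wild-type leukaemia arrays was above background. The other 2 were under it, which limits the size of each difference that involves that group. The log2 differences were -2.37 in wild type (SE 0.14, adjusted p = 4.26e-05) and -1.56 with the deletion (SE 0.10, adjusted p = 3.93e-05). Neither genotype difference passed (0.41, SE 0.12, adjusted p = 0.0623 in leukaemia and -0.41, SE 0.11, adjusted p = 0.883 in DP cells). The difference of these differences did, at 0.81 (SE 0.16, adjusted p = 0.00556).

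Tle1 read 372, 268 and 159 in wild-type leukaemia, 205, 217 and 110 in deletion leukaemia, 199, 132 and 105 in wild-type DP cells and 78.2, 83.6 and 118 in deletion DP cells. Array 3 was the lowest in the first 3 of these groups, and neighbouring groups overlapped. Tle1 passed in no comparison as fitted (wild-type leukaemia against DP cells 0.77, SE 0.32, adjusted p = 0.116, and leukaemia genotypes -0.52, SE 0.35, adjusted p = 0.39). With the replicate block the adjusted p was 0.00148 and 0.0319. A second Tle1 probe set exceeded DP cells by 1.26 in wild-type leukaemia (adjusted p = 0.0116) and by 1.07 in deletion leukaemia (adjusted p = 0.0138). Tle3 ranged from 964 to 1498 with no call.

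**Figure D4:**
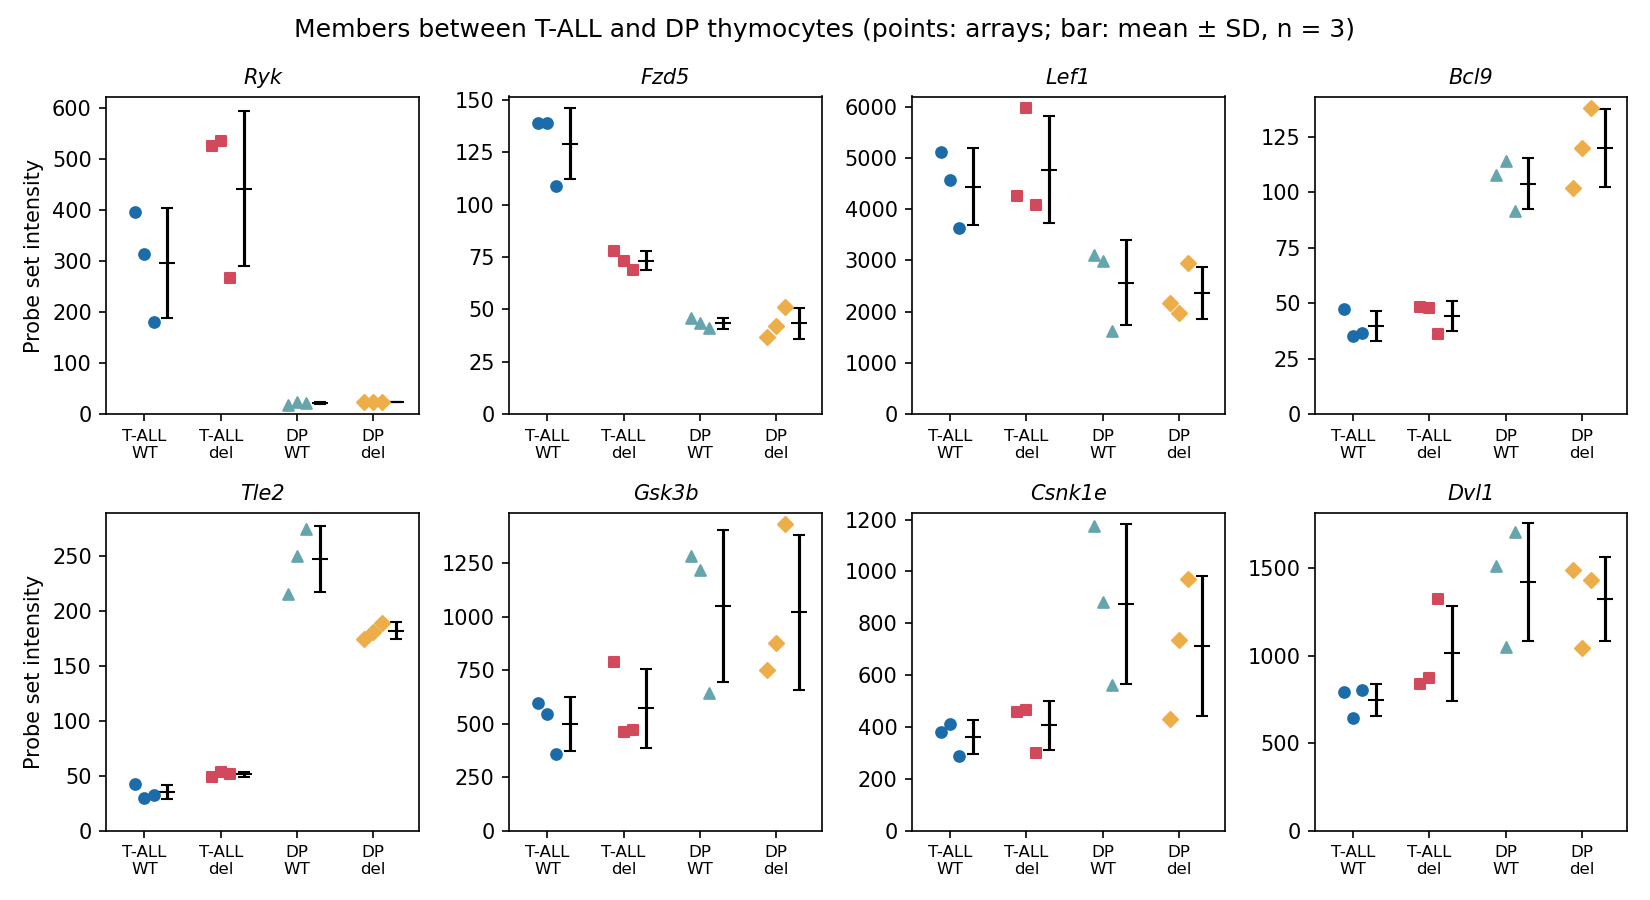
Intensity by array (linear axis from 0) of 8 genes that differ between leukaemia and DP thymocytes, with the group mean and SD beside the points (n = 3). Ryk, Fzd5 and Lef1 are higher in both leukaemia groups, and Bcl9 and Tle2 lower, without overlap, while the leukaemia and DP arrays of the deletion groups overlap for Gsk3b, Csnk1e and Dvl1.

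Further genes of the pathway were counted in 4 lists, and some genes are counted in both the list of regulators and the list of targets. Among Wnt ligand and secretion genes, 21 of 25 were tested. Of 19 ligand genes measured, Wnt3a, Wnt7a and Wnt7b were above background on all 12 arrays, 7 on some and 9 on none. Wls, which encodes the carrier that brings Wnt proteins to the cell surface, was under background in both leukaemia groups (7.85 to 17.6) and read 109 to 202 in DP cells. It was at least 4.57-fold lower in wild-type and at least 3.84-fold lower in deletion leukaemia (adjusted p = 4.29e-05 and 9.43e-05). Wnt8b was the only gene of this list called between the leukaemia genotypes, at a log2 difference of -1.71 (SE 0.42, adjusted p = 0.0351). It made 4.76% of the 21 tested genes, against 16.2% of all genes.

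Among other regulators of the pathway, 63 of 64 were tested and 10 rose and 6 fell with the deletion in leukaemia, 25.4% of them against 16.2% of all genes. Ctnna1, which encodes alpha-catenin, the partner of beta-catenin at cell junctions, rose by 2.85 (SE 0.15, adjusted p = 5.83e-05), from 88.2 to 119 over the wild-type arrays to 710 to 955. Daam1, a formin that binds dishevelled, fell by 2.47 (SE 0.28, adjusted p = 0.00139), from 509 to 916 down to 94.2 to 169. Between wild-type leukaemia and DP cells 7 of these genes were higher and 17 lower, and between the deletion groups 10 were higher and 13 lower, 38.1% and 36.5% called against 33.9% and 29.4% of all genes. Daam1 was 3.25 higher in wild-type leukaemia than in DP cells (SE 0.22, adjusted p = 7.94e-05), where it read 51.1 to 73.9.

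Among 27 tested genes known as targets of Wnt signalling or TCF factors outside the members, 4 rose and 5 fell with the deletion in leukaemia, 33.3% of them against 16.2% of all genes. Ccnd2, a D-type cyclin, rose by 4.30 (SE 0.13, adjusted p = 6.34e-06). Cd44, an adhesion receptor, was under background in all deletion leukaemias (up to 26.9) against 240 to 304 in wild type, at least 7.69-fold lower (adjusted p = 0.000105). These targets therefore did not all go the way of Axin2. Between leukaemia and DP cells 8 were higher and 3 lower in wild type, and 10 higher and 5 lower with the deletion, 40.7% and 55.6% called against 33.9% and 29.4% of all genes. Of 23 tested T-cell genes that TCF1 and LEF1 bind or regulate, 4 rose and 6 fell with the deletion in leukaemia. These made 43.5% of this list, against 16.2% of all genes. The smallest p values were those of Cd4 (log2 difference -1.39, SE 0.1, adjusted p = 0.000199) and Cd8a (-3.7, SE 0.4, adjusted p = 0.00113). Both, with other genes of this list, are among the T-lineage markers summed above, so the list is not separate from that lower sum. Id3 was down by 2.16 (SE 0.23, adjusted p = 0.00118) and Satb1 down by 1.35 (SE 0.17, adjusted p = 0.00219). Against DP cells, 1 was higher and 13 lower in wild-type leukaemia, with a median log2 difference of -1.14 against 0.06 over all genes. With the deletion, 4 were higher and 13 lower. The shares called were 60.9% and 73.9%, against 33.9% and 29.4% of all genes. No gene of the 4 lists was called between the DP genotypes, where 0.0324% of all genes were. At an unadjusted limma p under 0.05 there were 2, 4, 2 and 1, in the order of the lists. The share of all genes at that unadjusted threshold was not computed, so these counts have nothing to be set against.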

How the data were processed

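Biotin cRNA was prepared from 7 µg of RNA a sample, per the labels' protocols. Linear probe set intensities from 3.07 to 21619.6, summarized by the authors, were deposited, and the sources used here do not give how they were summarized or normalized. The spread of array medians was 0.0752 on the log2 scale, under the limit of 0.1 for normalizing again. Of 45101 probe sets, 34945 have 1 gene in the array annotation, 932 have several, 9160 have none and 64 are controls. Gene identifiers were matched to the GRCm38.p6 gene table for 34741 probe sets, with no symbol changed.

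The brightest single-gene probe set on average over 12 arrays stood for each gene. Of 18193 genes, 15420 that exceeded their array's 25th percentile on at least 3 arrays were tested on log2(intensity + 16), computed from the deposited intensities. The added constant makes log2 differences of dim genes smaller than those of the intensities. Differences were tested with limma 3.58.1 (lmFit, eBayes) in R 4.3.3, each pair of groups in a fit of its own and the difference of genotype differences in a fit of all 12 arrays. A gene was called at a Benjamini-Hochberg adjusted p under 0.05. The procedure was tested on simulated data with independent noise. The changes set there were larger than the genotype differences of the Wnt genes described here, so recovery of differences of that size was not tested. Other probe sets of a gene were tested in a fit over the 28372 probe sets that passed the same filter. Values within the arrays with or without poly-A signal are differences of means with no test. A fold given as "at least" sets the bright group against the background level of 35.3. Plots were drawn with matplotlib 3.10.9 in Python 3.11.15. The number of arrays limits the precision, and no exact rank test of 3 against 3 can go below 0.1.

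The genes, the further lists and the alternatives were chosen with earlier results of these data known. By the rule used, any of the 40 genes may be named, Mbd2 in any comparison, and of each further list up to 4 called genes per comparison by smallest p, or 2 genes by the same order where fewer passed. Wnt3a, Wnt7a and Wnt7b were named after their values were seen.

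As alternatives, each array was left out in turn, and fits were run with quantile normalization, with centring on the 75th percentile, with the filter dropped or set at the array median, with the mean of a gene's probe sets, with constants of 1 and 64, with a trended and robust eBayes, with array weights, with a block for the replicate number or for the poly-A set, and with all 12 arrays together. To check pairing, the deviations of samples from their group means were correlated across genes. Equal numbers gave 0.40, 0.24 and 0.55 between the leukaemia genotypes and 0.45, 0.44 and 0.58 between wild-type leukaemia and DP cells. Equal numbers thus deviated together there, while the labels give only the numbers and state no pairing. The main fits were unpaired, so their SE, adjusted p and counts leave this out, and the number entered only as a block among the alternatives. Number 1 and number 3 also share the poly-A set in both comparisons, and number 2 in the second.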

Additional observations from a re-analysis of the deposited data

Results flagged for a closer look

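The genotype difference in leukaemia minus that in DP thymocytes was tested directly, in a limma fit of all 12 arrays. An adjusted p under 0.05 was found for 6 of the 37 tested genes (16.2%), against 12.6% of all 15420 genes. The values on the log2 scale were -0.68 for Fzd5, 1.09 for Axin2, -1.09 for Tcf7l1, -1.49 for Ctnnbip1, 0.81 for Tle2 and 1.61 for Tle4. For Fzd5, Axin2, Ctnnbip1 and Tle4 the leukaemia difference passed its own test and the DP difference did not. For Tcf7l1 and Tle2 neither passed, and the differences had opposite signs, -0.49 in leukaemia against 0.60 in DP cells for Tcf7l1 and 0.41 against -0.41 for Tle2. All 3 deletion DP arrays lack poly-A signal, while 2 of 3 wild-type DP arrays have it, and the part of this in the 6 differences was tested only by the block for the poly-A set, under which 6 of these genes were called.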

How the results depend on the processing

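Of 31 calls on these genes, 23 were kept under every alternative run on them, and 53 of 587 fits lost a call (Axin2, Csnk1a1, Lrp5, Dvl1, Gsk3b, Fzd3, Gsk3a and Fzd5), with none reversed. Between the deletion groups, the block for the poly-A set and the fit without deletion leukaemia array 1 are the same fit, and both are counted. The count of 5 between the leukaemia genotypes became 8 with the mean of probe sets, 9 with array weights and 8 with the replicate number as a block, and 3 to 6 without 1 array. The 6 genes of the difference of differences became 10 with array weights and 5 to 7 without 1 array. The cause of these shifts was not tested, and the share of all genes called was not computed under the alternatives. Counts ran from 7 to 15 between wild-type leukaemia and DP cells and from 8 to 12 between the deletion groups, and no alternative called a gene between the DP genotypes. None of the 31 called differences changed sign, while 67 of 154 uncalled ones lay on both sides of 0 over the alternatives. Of those that some setting called, the sign turned for Gsk3b between the leukaemia genotypes and Fzd7 between the deletion groups. Gsk3b was -0.04 without wild-type leukaemia array 3 and -0.07 without deletion leukaemia array 1, with a range of -0.07 to 0.32 without 1 array. Fzd7 was -0.03 with array weights and -0.07 without deletion DP array 3, with a range of -0.07 to 0.13 without 1 array. The settings that called them lay above these ranges. They were the block for the poly-A set for Gsk3b (0.41) and the mean of probe sets for Fzd7 (0.59, adjusted p = 0.0122).

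With a block for the poly-A set, Gsk3a (-0.48, adjusted p = 0.0345) and Gsk3b (0.41, adjusted p = 0.0414) were called between the leukaemia genotypes and Csnk1a1 was not (0.36, adjusted p = 0.0672). Equal replicate numbers did not deviate together between the DP genotypes (-0.52, 0.14 and -0.49) or between the deletion groups (-0.39, 0.09 and -0.43). There the replicate block gave 0 and 8 calls against 0 and 10. Beside the changes given with the results, the replicate block changed no call in the comparisons where equal numbers deviated together. With 3 arrays a group, and many receptor probe sets at background, small differences of the dim genes cannot be resolved.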

Other observations

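The second Fzd7 probe set, outside the choice of the brightest, differed from the one reported. It read 51.2, 61.2 and 42.5 in wild-type leukaemia, 95.8, 96.3 and 51.0 in deletion leukaemia, 24.3, 31.4 and 20.7 in wild-type DP cells and 22.4, 27.3 and 32.2 in deletion DP cells. All 6 leukaemia arrays were above the background level and all 6 DP arrays under it. The log2 difference was 0.70 in wild type (limma over all probe sets, adjusted p = 0.0128) and 1.13 with the deletion (adjusted p = 0.00875), against 0.20 and 0.06, not called, for the brighter probe set.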
